A study of Mus musculus with 2 samples.

Results

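The regions described here are stretches of open chromatin in gene deserts of the mouse calf muscle. Peaks of both samples were merged into 143462 regions, of which 74516 held a peak of both samples and are called shared. A shared region was a member if it overlapped no protein-coding gene body and if its centre lay over 100 kb from the nearest protein-coding start site. The rule gave 6033 members, 8.10% of the shared regions, and it used positions only, not signal. Membership was checked against a second annotation, and 64 members (1.06%) overlapped a protein-coding gene body of RefSeq. How GENCODE holds those genes was not checked.

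DNase-seq, which cuts chromatin with the enzyme DNase I where DNA is accessible, was applied to the gastrocnemius, the large muscle of the calf. Both samples came from adult male B6CASTF1/J mice, an F1 hybrid strain, at 18 to 20 months of age, with no treatment named. They form 1 group of 2 biological replicates, with no control and no other age. Their donor labels are identical and their biosample labels differ. Whether they are tissue of 1 animal or 2 is therefore not known, and differences between them may be technical. Nothing was tested between groups and no p-value is given. The tissue was taken whole, so a weak signal from many cells and a strong signal from few cells cannot be told apart in any value below.

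Gene deserts are long stretches without protein-coding genes, often beside genes for transcription factors and signals that guide development. Open chromatin within them can mark distal enhancers, which are bound by tissue factors and act on promoters far away, or sites of CTCF, the protein that holds the bases of chromatin loops. Muscle nuclei use MyoD family proteins, which bind E-boxes, MEF2 proteins and TEAD factors, while AP-1 and steroid hormone receptors respond to stimuli.

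Sequences of 5 members are shown, for the CTCF core, myogenic E-box, AP-1, TEAD and hormone element. Each is the strongest member whose 200-base window held that motif inside a footprint of both samples. Examples of other motifs compared further on are not shown. A footprint is a short stretch inside open chromatin where cutting drops, as a bound protein would cause. Each is the + strand of mm10 (RefSeq, GRCm38.p6) over the 200 bases around the region's centre, 5′ to 3′. Capitals mark the motif match that footprints of both samples covered by at least 50%. It is the reference sequence, and alleles of the hybrid were not separated.
CTCF core at chr8:20122121-20122320: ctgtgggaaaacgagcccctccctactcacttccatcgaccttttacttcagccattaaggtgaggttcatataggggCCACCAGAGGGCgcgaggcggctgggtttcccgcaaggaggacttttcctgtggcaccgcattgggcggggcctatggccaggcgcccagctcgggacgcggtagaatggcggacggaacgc
Myogenic E-box at chr13:107831341-107831540: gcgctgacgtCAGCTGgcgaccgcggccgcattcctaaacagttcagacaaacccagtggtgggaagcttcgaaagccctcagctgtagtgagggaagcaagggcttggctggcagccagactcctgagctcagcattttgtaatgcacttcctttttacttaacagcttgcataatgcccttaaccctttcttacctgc
AP-1 at chr10:126511611-126511810: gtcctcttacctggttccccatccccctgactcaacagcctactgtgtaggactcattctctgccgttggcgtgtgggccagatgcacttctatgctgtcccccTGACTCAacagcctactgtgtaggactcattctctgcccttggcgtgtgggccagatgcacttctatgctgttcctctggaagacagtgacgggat
TEAD at chr2:128396011-128396210: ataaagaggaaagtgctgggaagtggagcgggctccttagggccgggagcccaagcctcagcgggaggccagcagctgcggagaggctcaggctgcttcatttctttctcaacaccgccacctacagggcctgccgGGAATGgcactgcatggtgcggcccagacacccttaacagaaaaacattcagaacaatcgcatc
Hormone element at chr16:25059291-25059490: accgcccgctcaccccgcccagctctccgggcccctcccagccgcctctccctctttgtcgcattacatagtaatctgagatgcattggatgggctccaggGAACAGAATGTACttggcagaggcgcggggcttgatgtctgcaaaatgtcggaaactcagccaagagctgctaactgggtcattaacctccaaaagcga

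These members had high signals, in the authors' unit, whose scale is not stated. The CTCF example between Gm31371 and Gm15319, predicted genes on chromosome 8, reached 13.0 in replicate 1 and 14.7 in replicate 2. The hormone element example lay between Lpp, a gene for an adhesion protein, and Tprg, with signals of 12.5 and 11.9. The AP-1 example, between Lrig3 and Atp23, had 6.70 and 10.5, the least even pair of the set. Within its window a long stretch with TGACTCA recurs nearly unchanged, and only the later TGACTCA is in capitals. The TEAD example lay between Bcl2l11, which encodes a protein that promotes cell death, and Spdye4c, inside the long noncoding RNA gene Gm14005, with 5.63 and 5.91. The E-box example lay between Kif2a, a kinesin gene, and Ndufaf2, a gene for respiratory complex assembly, with 4.51 and 5.26. Its marked E-box lay in the window but before the called region, which ran from 107831381 to 107831500. It also shared bases with TGACGTCA, the CRE motif described further on. Which of these motifs the footprints belong to was not tested. The lowest percentile that any of the 5 took among shared regions in either replicate was 92.8. Members picked in the same way for motifs not shown could stand lower, as did that for MEF2, at 79.4 and 82.9.

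Members were open more weakly than regions nearer to genes. Their median signal was 0.695 in replicate 1 and 0.598 in replicate 2, with quartiles at 0.452 and 1.13 and at 0.430 and 0.962. The same medians were 0.929 and 0.805 for 14441 shared intergenic regions 10 to 100 kb from a start site, and 1.81 and 1.85 for 20707 regions within 1 kb of a start. As a percentile among all shared regions, the median member stood at 31.2 and 27.0, a mean of 29.1 ± 2.96 (SD, n = 2). The intergenic regions stood at 45.2 and 43.7 and those within 1 kb of a start at 73.2 and 76.6, so the order of the 3 classes was the same in both replicates and the gaps exceeded the spread between them. Only 83 members in replicate 1 (1.38%) and 68 in replicate 2 (1.13%) reached the top 10% of shared regions. Spearman's rank correlation of the 2 signals over the 6033 members was 0.848, as a description, since regions of a library share its depth and preparation.

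**Figure D1:**
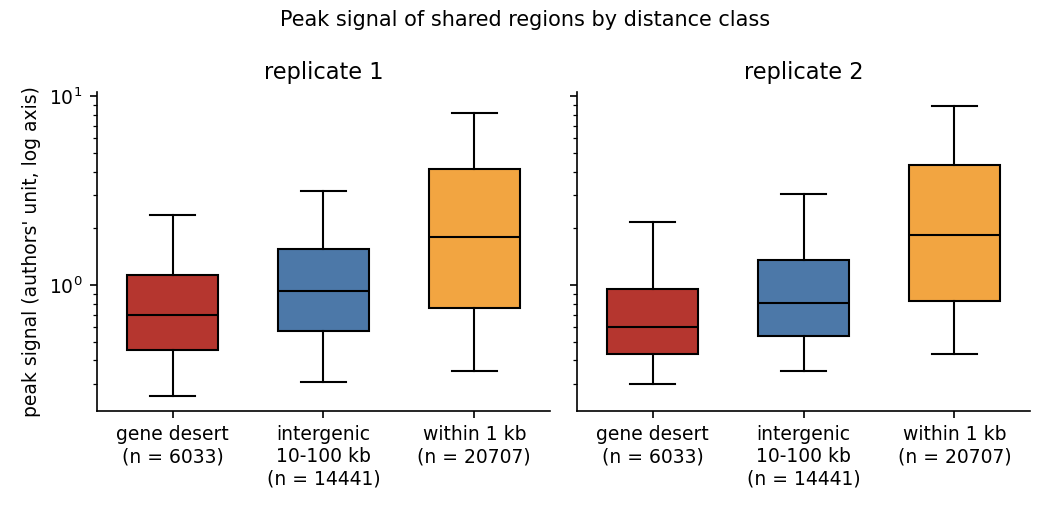
Peak signal in the authors' unit (log axis) in each replicate for gene desert, intergenic and start site regions, with medians, quartiles as boxes and the 5th and 95th percentiles as whiskers. Desert boxes sit lowest in both replicates, with medians of 0.695 and 0.598.

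Desert regions were also found less often in both samples. Of 16095 merged regions that met the distance rule, 37.5% (exact 95% interval 36.7 to 38.2, which like the others here covers counting error only) were shared, against 51.9% of all merged regions, 51.2% of intergenic regions and 70.8% of start site regions. Replicate 1 held 13994 of them and replicate 2 held 8134, so 43.1% of the first and 74.2% of the second recurred in the other sample. The 7961 regions seen only in replicate 1 had a median signal of 0.269, and the 2101 seen only in replicate 2 had 0.240. Among regions only in replicate 1, 507 (6.37%) overlapped a site under a false discovery rate of 0.05 in replicate 2, and 213 (10.1%) of those only in replicate 2 overlapped one in replicate 1.

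Recurrence rose with strength. When all merged regions of replicate 1 were split into 4 equal bins of signal, the desert regions from weakest to strongest recurred in replicate 2 at 13.7%, 48.4%, 84.3% and 98.9%, against 16.3%, 40.6%, 76.7% and 98.3% of all regions. Those of replicate 2 recurred in replicate 1 at 50.6%, 95.7%, 99.2% and 100%, against 49.1%, 88.5%, 97.7% and 99.7%. Except in the weakest bin of replicate 1, the share of desert regions was the higher within each bin. Of the desert regions, 48.1% in replicate 1 and 49.9% in replicate 2 lay in the weakest bin.

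In width and base composition the members were like other intergenic regions. Their median width was 220 bp, from 55 to 1212 bp, and the 200 bases at their centre had a median GC content of 50.5% and 3 CpG. Intergenic regions had a median of 220 bp, 52% and 3 CpG, and start site regions 260 bp, 64% and 15 CpG. At least 10 CpG stood in 204 members (3.38%), against 7.19% of intergenic and 71.2% of start site regions. These 204 had median signals of 0.868 and 0.844, above the 0.690 and 0.593 of the other 5829. Of the 204, 44 (21.6%) lay within 1 kb of the start of a long noncoding RNA, against 304 (5.22%) of the others.

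The strict peak list, a smaller list the authors deposited, held 3318 members in both samples (55.0%), against 66.1% of all shared regions. It held 5235 members in replicate 1 (86.8%) and 3408 in replicate 2 (56.5%), where the shares of all shared regions were 88.6% and 68.0%. Footprints in both samples lay in 5072 members (84.1%, exact 95% interval 83.1 to 85.0), against 87.2% of all shared regions and 89.0% of intergenic regions. All shared regions were split into 4 equal bins of mean signal rank. From weak to strong, these held 2784, 1568, 1179 and 502 members and 4133, 3927, 3940 and 2441 intergenic regions. Footprints in both samples were found in 69.5%, 94.0%, 98.6% and 99.8% of these members and in 70.6%, 92.6%, 97.9% and 99.9% of these intergenic regions. The bins match strength only coarsely. Within them neither class was above the other throughout.

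Open regions thinned out with distance from genes. The sequence that met the rule measured 855 Mb, 32.3% of 2648 Mb, and held 7.06 members per Mb, against 38.2 shared regions per Mb elsewhere. Outside gene bodies, shared regions numbered 122 per Mb within 1 kb of a start, 33.8 at 1 to 10 kb, 27.3 at 10 to 50 kb and 20.4 at 50 to 100 kb. The density then fell to 12.8 at 100 to 200 kb, 6.98 at 200 to 500 kb, 2.12 at 500 to 1000 kb and 0.510 past 1000 kb. The median member lay 192 kb from a start.

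**Figure D2:**
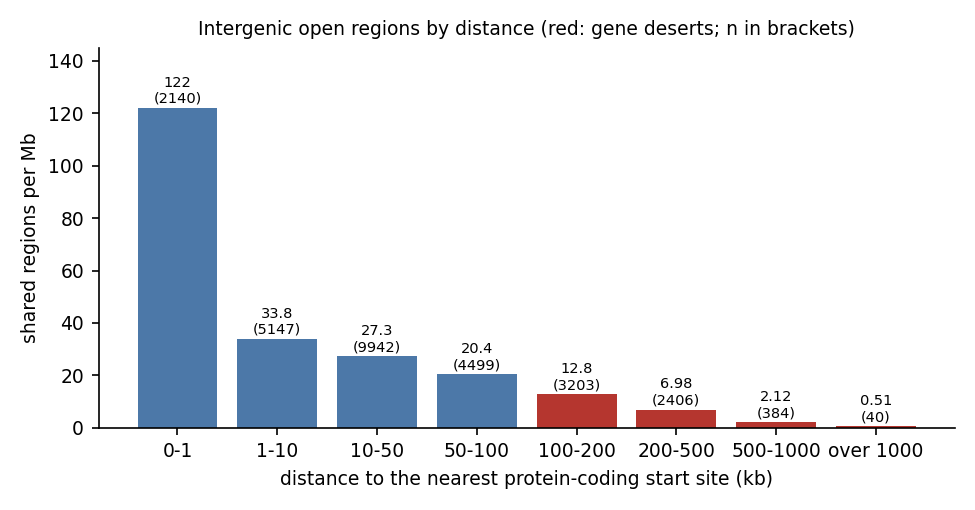
Shared intergenic regions per Mb of sequence (vertical axis) by distance to the nearest protein-coding start site in kb, with the number of regions in brackets and gene deserts in red. Density falls at every step, from 122 to 0.510 per Mb.

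Signal fell with distance too. The 3203 members at 100 to 200 kb had medians of 0.751 and 0.648, the 2406 at 200 to 500 kb had 0.655 and 0.553, the 384 at 500 to 1000 kb had 0.569 and 0.489, and the 40 past 1000 kb had 0.482 and 0.363. Footprints in both samples were present in 86.3%, 82.5%, 77.9% and 62.5% of these sets. The signals made no jump at the limit of the rule. At 90 to 100 kb, 618 excluded regions had medians of 0.812 and 0.685, and at 100 to 110 kb, 500 members had 0.802 and 0.671. The member nearest the limit, on chromosome 2 at 146612281 to 146612440, was 100017 bp from Ralgapa2 with signals of 1.25 and 1.10. The nearest excluded region, on chromosome 8 at 68988561 to 68988760, was 99985 bp from Atp6v1b2 with 1.31 and 1.16. The most remote member lay 2464 kb from a start, between the protocadherin genes Pcdh20 and Pcdh9, with weak signals of 0.173 and 0.285.

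The CTCF core was rarer in members than in intergenic regions nearer to genes. Motifs were searched on both strands of the central 200 bases and of windows 5 kb to the left and right of each member, 12066 windows in all. The CTCF core, searched as CC, any 3 bases, AG, any 2 bases and GGC, was in 788 members (13.1%, exact 95% interval 12.2 to 13.9), against 16.9% of all shared regions, 21.3% of intergenic regions and 1.82% of the side windows. No such gap stood at the limit of the rule. The core was in 11.7% of the 618 excluded regions at 90 to 100 kb and in 16.8% of the 500 members at 100 to 110 kb. Over all members, the gap to the intergenic regions held within each bin of strength. From the weakest to the strongest of the 4 bins of signal rank, the core was in 11.0%, 11.99%, 16.8% and 19.3% of members and in 14.0%, 18.1%, 25.6% and 31.5% of intergenic regions. Members with the core had median signals of 0.802 and 0.696, against 0.675 and 0.587 without it, and footprints in both samples in 92.6% against 82.8%.

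The E-box, AP-1 and TEAD motifs were slightly more common in members than in intergenic regions. The myogenic E-box CAGCTG was in 1470 members (24.4%, interval 23.3 to 25.5), against 20.7% of all shared regions, 22.8% of intergenic regions, 13.1% of start site regions and 7.71% of side windows. AP-1 (TGANTCA) was in 743 members (12.3%, interval 11.5 to 13.2), against 8.62% of shared, 10.9% of intergenic and 3.54% of start site regions and 6.46% of side windows. TEAD (GGAATG) was in 919 members (15.2%, interval 14.3 to 16.2), against 11.6% of shared and 12.9% of intergenic regions, but also 11.2% of side windows. The hormone element, bound by glucocorticoid and related receptors and searched as G, any base, ACA, any 3 bases, TGT, any base and C, was in 94 members (1.56%, interval 1.26 to 1.90), against 1.03% of shared and 1.17% of intergenic regions and 0.332% of side windows. Intervals of members for the E-box, AP-1 and TEAD lay above the intergenic share, and that of the hormone element included it. At 90 to 100 kb, the 618 excluded regions held the E-box in 25.6%, AP-1 in 10.8% and TEAD in 15.5%. The 500 members at 100 to 110 kb held them in 24.0%, 10.6% and 15.8%. Within bins of strength AP-1 was not above throughout. In the weakest of the 4 bins of signal rank it was in 11.1% of members and 11.9% of intergenic regions, and in the strongest in 12.9% and 9.42%.

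A loose pattern for the MEF2 motif of muscle regulators, CTA, any 4 bases and TAG, was in 181 members (3.0%). This was near the 3.01% of all shared regions, the 3.43% of intergenic regions and the 3.22% of side windows. A narrower MEF2 pattern was not searched, so these shares do not measure MEF2 sites alone. RUNX (TGTGGTTT), in 105 members (1.74%), stood at 1.26% of shared regions and 1.79% of side windows. Promoter motifs were scarcer than in all shared regions, but more common than in side windows. The GC box GGGCGG was in 404 members (6.70%), against 21.9% of shared, 11.1% of intergenic and 52.3% of start site regions and 1.82% of side windows. The CRE TGACGTCA was in 25 members (0.414%), with 1.03% of shared regions and 0.108% of side windows. The general E-box CACGTG was in 195 members (3.23%), with 4.93% of shared regions and 2.24% of side windows. The nuclear factor I motif (TTGGC, any 5 bases, GCCAA) was in 7 members (0.116%, with 0.0913%), too few to read.

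**Figure D3:**
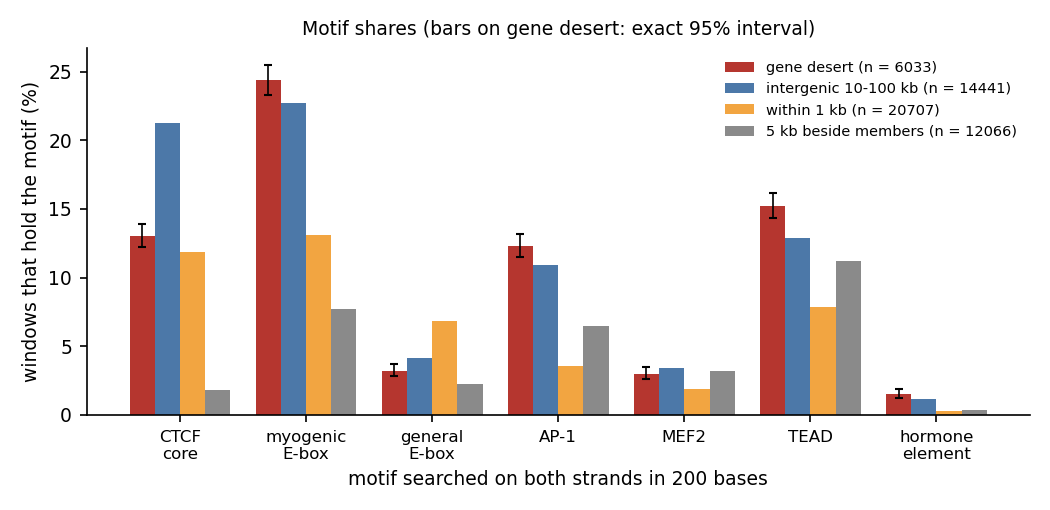
Share of 200-base windows (%) that held each motif in gene desert members, intergenic regions, start site regions and windows 5 kb beside members, with exact 95% intervals on the members. The CTCF core stands at 13.1% in members and 21.3% in intergenic regions, while the myogenic E-box stands at 24.4% and 22.8%.

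Of the 4 motifs CTCF core, E-box, AP-1 and TEAD, 2864 members (47.5%) held none, 2494 held 1 kind, 601 held 2, 72 held 3 and 2 held all 4. Matches overlapped in part: 30 of 819 CTCF cores shared bases with an E-box and 10 of 809 AP-1 matches with a TEAD match. Footprints covered at least 50% of a CTCF core in 73.5% of matches in replicate 1 and 65.6% in replicate 2. The same shares were 25.9% and 22.5% for the E-box, 18.7% and 10.9% for AP-1 and 19.3% and 12.5% for TEAD, where footprints took up 16.4% and 12.3% of all window bases. The MEF2 matches were covered at 19.1% and 10.4%, and 9 and 10 of the 94 hormone elements were covered. Coverage of the CTCF core was above the footprints' share of bases in both replicates. So, with smaller shares, was that of the E-box and, by little in replicate 2, that of TEAD. A match covered by at least 50% is a different measure from a share of bases. GC boxes were covered at 39.9% and 34.4%, general E-boxes at 35.6% and 25.4%, and 20 and 13 of 25 CREs were covered. These shares were above those of the myogenic E-box. No match says only that these letters are not in the window.

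A minority of deserts held most members. The rule left 2057 stretches between neighbouring protein-coding genes, and 1110 of them (54.0%) had at least 1 member, with a median of 3. In 313 deserts there was 1 member only. The 172 deserts with 10 or more held 3090 members (51.2%) in 13.4% of the eligible sequence. Long deserts held fewer members per Mb, although more of them held any. Deserts up to 0.5 Mb held 16.9 members per eligible Mb, those of 0.5 to 1 Mb 9.26, those of 1 to 2 Mb 4.03 and those past 2 Mb 1.48. At least 1 member lay in 615 of 1307, 281 of 435, 148 of 220 and 66 of 95 deserts of these lengths.

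The fullest desert ran from Myc, the growth-promoting transcription factor, to Gsdmc, a gasdermin gene (chromosome 15, 61990375 to 63775967), with 49 members. Its signals ran from 0.223 to 3.45 with a median of 0.807 in replicate 1, and from 0.285 to 2.17 with a median of 0.587 in replicate 2. Of its members 35 lay in bodies of long noncoding RNA genes, 20 of them in Pvt1. The E-box was in 12 of the 49, about the share over all members, and the CTCF core in 1. The strongest, 305 kb from Myc and carrying an E-box, had signals of 3.45 and 2.03. Only the Myc border had a promoter open in both replicates.

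The desert between Foxo1, which encodes a forkhead factor that drives muscle protein breakdown when insulin signals are low, and Cog6, of the Golgi, held 38 members in 0.629 Mb. Its medians were 0.962 and 0.794, the highest among the 10 fullest deserts in replicate 1. It held the strongest member of these 10 deserts, 248 kb from Foxo1, with signals of 8.97 and 9.27, a TEAD match and 5 and 4 footprints. The next strongest there, with a CTCF core, had 3.18 and 3.34. Klf4, a zinc finger factor, and Actl7b bordered 41 members with medians of 0.807 and 0.693, and the strongest, 119 kb from Klf4, had 5.41 and 5.16.

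The other deserts among the 10 fullest had 37 to 41 members. Cd83 and Jarid2, the latter a partner of the Polycomb complex that methylates histone H3, bordered 41 members, 13 with an E-box and none with the CTCF core, and the strongest had signals of 4.37 and 3.54. Zeb2, a zinc finger repressor, and Acvr2a, a receptor for activin and myostatin, bordered 39 members spread over 3.70 Mb, or 11.2 per eligible Mb. The desert of Gm5148 and Ankrd50 had 39 members in 0.725 Mb, or 73.4 per eligible Mb, with medians of 0.909 and 0.794 and an E-box in 16. Med13l, a Mediator gene, and Tbx3, a limb T-box factor, bordered 37, with the strongest at 2.84 and 3.02. Rps24, a ribosomal protein gene, and Zmiz1, a coactivator, bordered 37, with the strongest at 3.24 and 4.19. Dhx35 and Gm826 bordered 38, with the strongest at 3.10 and 3.45. On the X chromosome, H2al1j and Bcor, a corepressor gene, bordered 38 with medians of 0.698 and 0.559 and none above 1.85 and 1.60.

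Together these 10 deserts held 397 members (6.58%). In 9 of them some member stood above a signal of 2 in both replicates, and the X-linked desert was the exception.

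**Figure D4:**
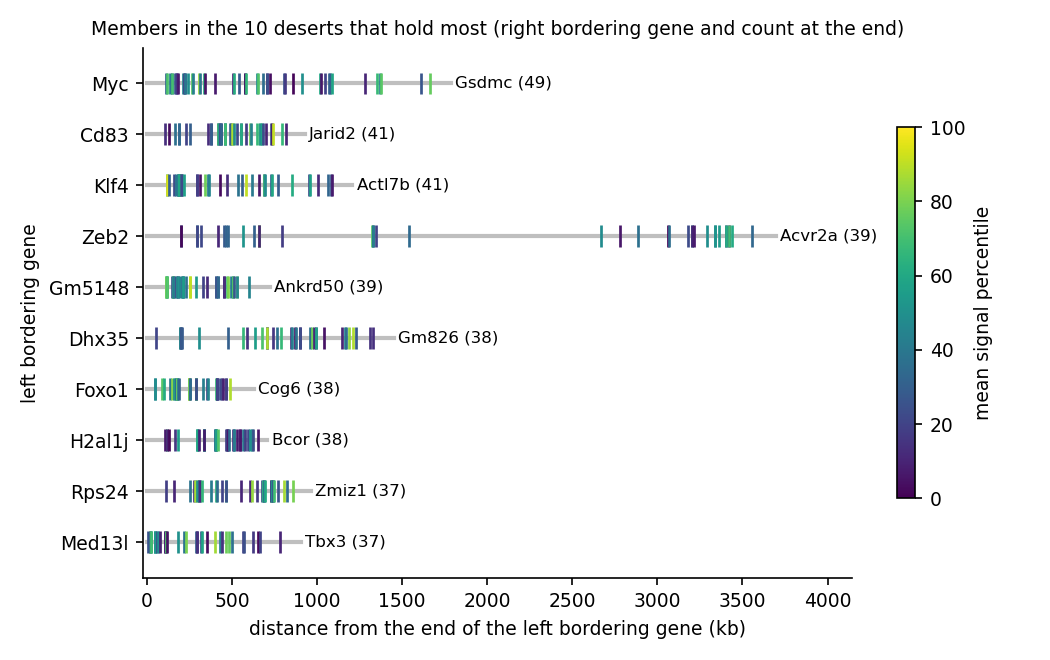
Members (ticks) along the 10 gene deserts that hold most, by distance in kb from the end of the left bordering gene, coloured by mean signal percentile. Labels at the line ends give the right bordering gene and the number of members, from 49 beside Myc to 37 beside Med13l.

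Members also came in packed groups. The median distance from a member to the nearest other member was 9.23 kb, and 39.1% had another within 5 kb. Intergenic regions were closer, at 5.26 kb and 49.1%. Between Rad51b, a DNA repair gene, and Zfp36l1, which encodes a protein that destabilises messenger RNA, 36 members filled 0.198 eligible Mb. Within 50 kb of each other, 19 of these lay on chromosome 12 between 79850101 and 79896340, with signals from 0.497 to 5.94 and from 0.375 to 4.85. Groups of 13 within 50 kb lay between Klf14 and Mkln1 and between Npvf and Nfe2l3, and a group of 12 lay between Haao and Zfp36l2. Little sequence met the rule in the other deserts of highest density. Tes and Cav2 bordered 5 members, Prkch and Hif1a, the oxygen-sensing factor, bordered 6, and Banf2 and Snx5 bordered 7. The densest of all, at the start of chromosome 4, is described further on.

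The longest deserts were nearly empty. Tenm3 and Aga, 4.67 Mb apart, bordered 2 members with signals no higher than 0.325 and 0.358. Pcdh20 and Pcdh9 bordered 3, Celf4 and Pik3c3 bordered 7, and Olfm4 and Pcdh17 bordered 6. The highest signals among those 3 deserts were 0.782 and 0.827. Cntnap5b and Cdh20, adhesion genes 4.28 Mb apart, bordered 1 member, and it was strong, with 7.88 and 9.51 and 3 footprints in each replicate. It lay on chromosome 1 at 102628161 to 102628360, 2140 kb from the nearest start, and held none of the 12 motifs searched. Neither of its border genes had a promoter open in both replicates.

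The 2 highest signals came with copies elsewhere in the genome. The top member, on chromosome 17 at 39846781 to 39846920 between Esp15 and Esp38, had signals of 43.5 and 53.8. It overlapped a ribosomal RNA gene in GENCODE and the pseudogene Rn18s-rs5 in RefSeq, and its central 36-base word occurred 2 times in the genome. The next, on chromosome 3 at 5860361 to 5860530, had 23.7 and 28.5, and its word occurred 8 times. The part of these copies in the signals was not tested. The other 8 of the top 10 had a central word found 1 time, and 7 of them fell between 6.70 and 12.5 in replicate 1 and between 7.86 and 11.9 in replicate 2, beside the chromosome 8 example. A central word found 1 time does not make a whole region unique. The member beside Lrig3, the AP-1 example, repeats a stretch within its window. They lay beside Lpp, Foxo1, Cdh20, Zfat, Lrig3, Cops8 and Pcmtd1, and the members beside Zfat and Pcmtd1 had 21 and 17 CpG and a general E-box and GC box each.

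A group at the start of chromosome 4, before Vmn1r2, stood apart at the low end. Its 19 members between 3050161 and 3066920 had medians of 0.152 and 0.190, and 11 were over 50% soft-masked, that is, marked as repeat in the reference. The central 36-base word of each of the 19 occurred 1 time in the genome. Of the 19, 3 were in the strict list of both samples and 6 had a footprint in both. The 15 members on chromosome Y had medians of 0.0812 and 0.112, and 13 were over 50% soft-masked. Across all members, 139 (2.30%) were so masked, with medians of 0.437 and 0.464, against 0.701 and 0.598 for the 5884 members in none of these 3 sets. The part of repeats in these values was not tested.

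Genes that border deserts with members more often had an open promoter than genes that border empty ones. A promoter counted as open where a peak lay within 1000 bp of a start. Of 1974 genes beside a desert with a member, 1443 (73.1%, exact 95% interval 71.1 to 75.05) had a promoter open in both replicates, against 62.5% of all protein-coding genes. Beside deserts with no member, 783 of 1615 genes (48.5%) did. The share was 62.9% beside deserts with 1 member, 75.1% with 2 to 4, 78.8% with 5 to 9 and 81.5% with 10 or more. Some genes border both kinds of desert and count in both, and longer deserts have more room for members. Both borders were open in 589 member deserts (53.6%) and in 252 empty ones (27.5%). Conversely, 186 members lay in 78 deserts with neither border open.

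**Figure D5:**
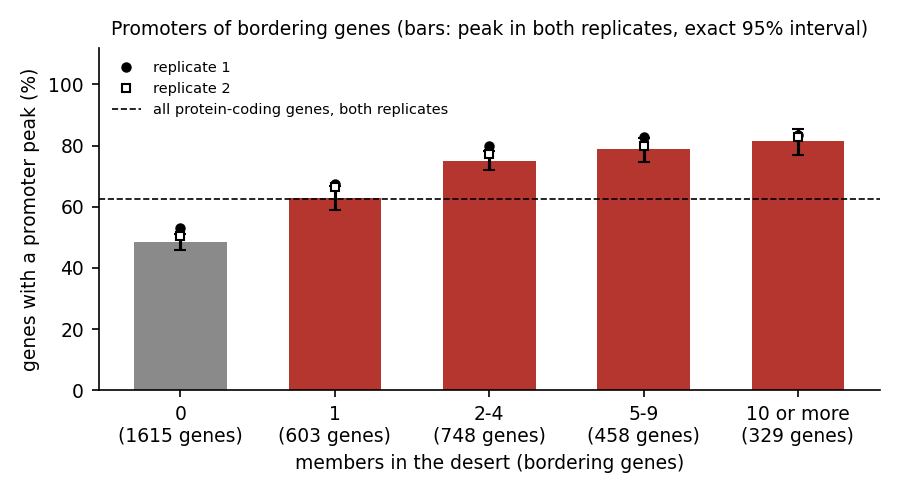
Share of bordering genes (%) with a promoter peak in both replicates, by the number of members in the desert, with exact 95% intervals, each replicate's own share as points and the share of all protein-coding genes as a dashed line. The bars rise from 48.5% beside empty deserts to 81.5% beside deserts with 10 or more members.

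Genes of development bordered the members often. Of 80 developmental transcription factors listed, 70 bordered a desert and 61 a desert with a member, and 53 of the 61 had an open promoter. Over all 21911 genes, 3310 bordered a desert and 1974 (9.01%) a desert with a member. A gene with a desert on both sides is counted here by the fuller of them. By that count Myc, Klf4 and Zeb2 bordered the most, and the median gene of the 61 bordered 6 members. Maf, a leucine zipper factor gene, had 23 members on the side of Dynlrb2 and 19 on that of Wwox, and Myc had 8 more on its other side. Of 51 genes for secreted signals, matrix and receptors, 41 bordered a desert and 34 a desert with a member, with 27 of these open. Igfbp3, which encodes a binding protein of insulin-like growth factors, bordered 27 members with medians of 0.619 and 0.503. Tgfb2, a ligand of the TGF-beta family, bordered 20 with 0.929 and 0.629, and Cxcl12, a chemokine gene, bordered 19 with 0.619 and 0.570 on the side of Zfp637 and 6 on that of Tmem72.

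Neuronal adhesion and synapse genes gave another picture. Of 55 listed, 52 bordered a desert and 40 a desert with a member, but only 20 of these 40 had an open promoter, and the median gene had 2 members in its fuller desert. Cdh4, a cadherin gene, bordered 12 with medians of 0.881 and 0.802, and its promoter was open. In the fuller desert, Cntn3 had 7 on the side of Pdzrn3, with medians of 0.447 and 0.492. Csmd1 had 7 on the side of Myom2, with 0.503 and 0.520. The promoters of Cntn3 and Csmd1 were not open, and which border gene these members act on was not tested. The other desert of Cntn3 held 2 members and that of Csmd1 none.

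Muscle regulators lay beside a desert less often than the developmental, secreted signal and neuronal genes listed above. Of 38 muscle regulators and fibre genes, 15 bordered any desert, and 13 of these 15 bordered a desert with a member. The 13 were 34.2% of the list, against 9.01% of all genes. The promoter of each of the 13 was open in both replicates. Mef2c, a MEF2 family factor, bordered 14 members with medians of 0.548 and 0.358 on the side of Cetn3, while the desert towards Tmem161b was empty. Nr4a3, a nuclear receptor gene induced by exercise, bordered 13 with higher medians of 1.38 and 1.12 and signals up to 3.66 and 2.45. Rora, a nuclear receptor of the clock, bordered 9 with 0.721 and 0.598. None of the 10 skeletal muscle fibre markers, such as Ckm and Acta1, bordered a desert.

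Some genes that mark other cells of the muscle bordered members: 3 of 7 fibroblast, 3 of 6 endothelial, 1 of 5 macrophage and 1 of 4 satellite cell markers, and 0 of 5 mural and 0 of 4 Schwann markers. Dcn, the matrix gene decorin of fibroblasts, bordered 13 on the side of Btg1, with medians of 0.868 and 1.04. Signals there went up to 3.75 and 4.72. Of the other fibroblast markers, Col3a1 bordered 5 with 0.838 and 0.470 and Pdgfra bordered 1 with 0.508 and 0.386. The desert beside Col1a2 was empty. Cdh5, the cadherin of endothelium, bordered 11 on the side of Cdh11, with 0.386 and 0.324. Kdr, a receptor of vascular growth factor, bordered 7 on the side of Kit, with 0.548 and 0.565. Emcn, also endothelial, had 4 in its fuller desert, with 0.373 and 0.570, and its promoter was not open in both replicates. Ptprc, the leukocyte gene for CD45, bordered 12 with 0.497 and 0.327, although its promoter was not open in either replicate. As a check of the tissue label, promoters open in both replicates were counted, beside 62.5% over all protein-coding genes. They were open for 10 of 10 muscle fibre, 7 of 7 fibroblast, 5 of 6 endothelial and 5 of 5 mural markers. The counts were 3 of 5 for macrophage, 2 of 4 for Schwann and 1 of 4 for satellite cell markers. Of markers listed for tissues other than muscle, 0 of 3 liver, 1 of 3 germ cell and 3 of 5 neuron promoters were open. Counts near the share over all genes say little about the tissue. Which cells the members were open in was not tested.

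Long noncoding RNA genes ran through 1316 members (21.8%), against 15.7% of intergenic regions, and 348 members (5.77%) lay within 1 kb of the start of such a gene, against 5.96% of intergenic and 6.23% of all shared regions. These 348 had median signals of 0.830 and 0.718, above the 0.690 and 0.593 of the rest. Lncpint, near Klf14, held 20 members with medians of 1.45 and 1.35, and Pvt1 held 20 with 0.830 and 0.696. Gm14005, near Bcl2l11, held 19 with 1.18 and 1.20. The gene 3110039I08Rik, between Ubash3b and Sorl1, held 18 with 1.10 and 0.878.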

How the data were processed

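DNase-seq peaks, sites and footprints of 2 samples in 1 group were used. Per the deposited descriptions, the authors made each file per sample from filtered alignments on mm10. The aligner, callers and versions are not given in the sources used here, and neither is the depth. Column 7 of the deposited peak lists is a signal in the authors' unit, each list scaled on its own. The deposited site files hold a p-value type false discovery rate below 0.05, and the deposited footprint files a constant p-value type 0.01. The inclusive lists held 131398 and 91567 peaks, the strict lists 86830 and 57869 and the footprint files 339656 and 234091 footprints in replicates 1 and 2. Peaks overlapping by at least 1 bp were merged, and a region took its strongest peak in each sample. Genes were the 21911 protein-coding symbols of GENCODE M21. A desert is the stretch between neighbouring gene bodies. Intervals are exact (Clopper-Pearson) 95% binomial intervals of counting error, and regions are not replicates.

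Named were the 10 members of highest mean rank, the members at the distance limit and the 10 deserts with most members. The 5 densest deserts with at least 5 members, the 5 longest and up to 3 border genes per list were named too. For each motif shown, the top member outside chromosome 18 was taken. Other named genes and groups were chosen after their values were seen. Members and lists were chosen with earlier results of these data known. Scripts (Python 3.11.15, numpy 2.4.6, pandas 2.3.3, scipy 1.17.1) were tested on simulated data. Alternatives varied the peak list, overlap, strength, list size, distance, annotation, start sites, replicate, window, promoter width and footprint overlap. The result of 1 motif is not reported here.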

Additional observations from a re-analysis of the deposited data

How the results depend on the processing

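No paired analysis was possible because there is only 1 group. Of 50 alternative values, 22 stayed within the spread or interval of the reported value or, for the number of members, within 1.5 times it. The number of members was 3322 with the strict peak list, 2105 with the better 50% of peaks, 10532 with a limit of 50 kb and 2830 with a limit of 200 kb. It ranged from 8204 to 14055 with either replicate left out. The shared percentage was 39.7% with the strict list, 36.7% with 50% overlap, 41.5% at 50 kb and 32.9% at 200 kb. The signal percentile was 35.7 with the better peaks, 33.0 at 50 kb and 24.2 at 200 kb, and 25.9 to 26.9 with a replicate left out. Footprints in both samples were in 96.7% with the strict list (97.0% of intergenic regions, a far smaller gap), 85.2% at 50 kb and 81.6% at 200 kb. With a replicate left out, a footprint in the other was in 74.7% to 74.9%. The CTCF core was in 15.6% with the strict list, 14.6% at 50 kb, 11.2% at 200 kb, 10.7% in 100-base windows and 15.9% in 400-base windows, and in 9.31% to 10.7% with a replicate left out. Open borders were 68.7% with the strict list and 75.3% with promoters of 2500 bp, and 70.5% to 72.5% with a replicate left out. Where these alternatives were run, members stayed below intergenic regions nearer to genes in the shared percentage (5 of 5 settings, the reported one included), signal percentile (10 of 10), footprints (9 of 9) and CTCF core (10 of 10). Leaving out members over 50% soft-masked, chosen after seeing the data, left 5894 and moved no other value beyond its spread. With no read depth, a region missed in 1 sample cannot be told from a closed one, and 2 samples limit every spread given.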

Other observations

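Members were spread unevenly over chromosomes. Among autosomes, the density ran from 5.51 members per eligible Mb on chromosome 3 to 13.0 on chromosome 13, which held 501. Chromosome X held 166, or 2.84 per Mb, with median signals of 0.477 and 0.425, and chromosome Y held 15, or 0.252 per Mb. Males carry 1 copy of X and of Y, and the part of copy number in these values was not tested. Chromosome 17 had the highest medians, 0.845 and 0.721.

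Pseudogenes overlapped 62 members (1.03%), against 1.35% of intergenic and 0.619% of all shared regions. MicroRNA genes overlapped 3 members (0.0497%), against 0.158% of all shared regions, and immunoglobulin or T cell receptor segments overlapped 2.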
